A study of Mus musculus with 16 samples.

Results

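The circadian clock genes described here are 10 transcripts of mouse liver, namely Arntl, Clock, Npas2, Per1, Per2, Per3, Cry1, Nr1d1, Nr1d2 and Dbp. They were taken by name, as every non-control probe that the scanner files assign to one of these genes, which gave 17 probes. For experiments 7 and 8, the same spots were read in the deposited value table. A level could be tested for 8 of the 10 genes, among 16664 tested genes of 28632 named on the array. Npas2 and Per3 were well above background in 2 of 24 channels each and were not tested.

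Livers of 4 genotypes were compared on 2-colour Agilent arrays, on which a Cy3-labelled and a Cy5-labelled RNA compete for the same spots. Nrf2 KO mice were Nrf2-/-, without the transcription factor that drives antioxidant and detoxification genes. Atg7 cKO mice were Atg7F/F:Mx1-Cre, in which pIpC, an inducer of interferon, switches on Cre from the Mx1 promoter and removes Atg7, an enzyme that autophagy needs. Double knockout mice were Atg7F/F:Mx1-Cre:Nrf2-/-, and wild-type mice were the partner of all 3. The Mx1 promoter also responds to interferon in blood and other liver cells, so the deletion is not limited to hepatocytes. The design text has Atg7 cKO, double knockout and control mice injected with pIpC at 8 weeks of age and their livers taken 4 weeks later. Which genotypes the control mice held, and whether Nrf2 KO mice were injected too, is not given there, but the growth label lists pIpC for every array. Nrf2 KO was set against wild type in experiments 1 and 4, Atg7 cKO in experiments 2 and 5, and the double knockout in experiments 3 and 6. The double knockout was set directly against Atg7 cKO in experiments 7 and 8. Each experiment was 2 arrays with the dyes swapped and counts as 1 replicate, so n = 2 in each comparison. The labels name no animal, sex, pool or hour of dissection. They also do not say whether wild-type RNA was shared between experiments. P-values measure only the spread between experiments, which may be technical and includes any difference between the 2 sets of experiments described below.

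A circadian clock runs in almost every cell of the body as a feedback loop of transcription. The activators ARNTL (also called BMAL1) and CLOCK, or its relative NPAS2, bind E-box elements as pairs and switch on the Per and Cry genes, whose proteins return to block the activators. The same pair switches on Nr1d1 and Nr1d2, which encode the repressors REV-ERB alpha and beta, and these compete with the ROR activators at ROR elements of Arntl. Dbp, a further direct target, encodes a factor that binds D-box elements and drives many rhythmic output genes of the liver. Because these transcripts rise and fall over the day, a level depends on the hour at which a liver is taken, and Arntl peaks in a phase opposite to that of Dbp and Nr1d1.

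The promoter stretches that carry these elements are shown for 3 genes of the loop, chosen to show a ROR element in Arntl and an E-box in Per1 and Cry1. RefSeq promoter windows (GRCm38.p6, 250 bases before to 50 after each annotated start) were given for 9 of the 10 genes, in 13 windows. Searched on both strands were the E-box CACGTG, the D-box TTATGTAA or TTATGCAA, the ROR element TAGGTCA or TGGGTCA, and TGACNNNGC, the core of the antioxidant response element that NRF2 binds. In the sequences that follow, 5' to 3', capitals mark these matches. The Arntl stretch is chr7:113207533-113207556 on the plus strand, the Per1 stretch is chr11:69098729-69098938 on the plus strand, and the Cry1 stretch is chr10:85185097-85185126 on the minus strand.
Arntl: gcagaaagTAGGTCAgggacggag
Per1: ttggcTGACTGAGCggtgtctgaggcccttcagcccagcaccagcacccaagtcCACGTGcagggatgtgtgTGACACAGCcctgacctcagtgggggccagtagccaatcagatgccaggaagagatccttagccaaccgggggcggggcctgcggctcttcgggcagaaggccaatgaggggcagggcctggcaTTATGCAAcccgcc
Cry1: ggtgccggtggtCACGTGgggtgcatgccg

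The Arntl match to the ROR element lies 30 bases after an annotated start. Per1 had an E-box 166 bases before its start, a D-box 24 bases before it and antioxidant response cores 215 and 148 bases before it. Cry1 had an E-box 60 bases before its start and antioxidant response cores 8 bases and 1 base before it, the last 2 with bases in common. Per3 had the D-box letters 205 and 158 bases before its start, and Nr1d2 an antioxidant response core 37 bases after its start. No listed motif was found in the windows of Clock, Npas2, Nr1d1 and Dbp, which says only that these letters are not in these windows. Of all 32851 windows, 7.15% held the E-box, 1.66% the D-box, 6.45% the ROR element and 12.4% the antioxidant response core. A match is a description of letters, not a measured binding site.

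On the 12 arrays with scanner files, 43.4 to 57.2% of the non-control spots of a channel were well above background. Nfe2l2, which encodes NRF2, fell by 3.88 ± 0.13 on the log2 scale in Nrf2 KO and fell by 3.71 ± 0.56 in the double knockout (SD, n = 2 each). Atg7 fell by 0.81 ± 0.02 in Atg7 cKO and by 0.73 ± 0.00 in the double knockout, its level being 5.92 and 5.81 in Atg7 cKO livers against 6.71 and 6.63 in wild type. The offset added in processing shrinks ratios at such low levels. On the deposited ratios, which carry no added offset, Atg7 stood at -3.17 and -3.67 (log2) in Atg7 cKO. In the double knockout it stood at -3.31 and -3.01. Experiments 1 to 3 and 4 to 6 formed 2 sets with different sex-linked transcripts in both channels. Each comparison with wild type held 1 experiment of each set. The wild-type level of Xist averaged 5.78 in experiments 1 to 3 and 11.19 in experiments 4 to 6 (log2), whereas Ddx3y averaged 7.72 in experiments 1 to 3 and 5.80 in experiments 4 to 6. None of the 3 sex-linked transcripts passed the test in any comparison with wild type.

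Wild-type livers differed in their clock gene levels between the 2 sets of experiments. Nr1d1, Nr1d2 and Dbp were higher in experiments 1 to 3 than in experiments 4 to 6, and Per2 and Clock were lower by their brightest probes. Levels here are single-channel log2 signals after normalization, each the mean of both dye orientations, and the comparison is a description with no test. Because wild-type RNA may have been shared, the wild-type values of experiments 1 to 6, here and below, may come from fewer than 6 RNA samples. The wild-type level of Nr1d1 was 7.42, 7.34 and 7.25 in experiments 1, 2 and 3, and 5.92, 5.86 and 5.92 in experiments 4, 5 and 6. In experiments 4 to 6 the Nr1d1 probe was not well above background in any of 6 wild-type channels, so by this probe its level was at least 2.68-fold higher in experiments 1 to 3. The other 2 Nr1d1 probes differed far less, by 0.22 and 0.28 (log2), and the first of these overlapped between the sets, so the size depends on the probe. The Nr1d2 level was 7.68, 7.56 and 7.52 in experiments 1 to 3, and 6.62, 6.40 and 6.48 in experiments 4 to 6, a difference of 1.09. For Dbp it was 7.86, 7.93 and 7.70 in experiments 1 to 3, and 6.89, 6.79 and 6.71 in experiments 4 to 6, a difference of 1.03. By the probes used, all 3 genes had wild-type levels that did not overlap between the sets.

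The brightest Per2 probe ran the other way, at 6.10, 6.10 and 6.25 in experiments 1 to 3 and 6.78, 6.73 and 6.76 in experiments 4 to 6. The other Per2 probe did not share this direction: its levels were 6.80, 6.56 and 6.45 in experiments 1 to 3, and 6.43, 6.26 and 6.25 in experiments 4 to 6. No direction is therefore given for Per2. Clock read 8.01, 7.99 and 8.03 in experiments 1 to 3, and 8.44, 8.41 and 8.39 in experiments 4 to 6. Arntl was level across the sets, at 8.18, 8.03 and 8.13 in experiments 1 to 3, and 8.17, 8.17 and 8.23 in experiments 4 to 6. Per1 was 0.19 lower in experiments 1 to 3. Cry1 was not well above background in any of 6 wild-type channels there, and its level was at least 1.13-fold lower than in experiments 4 to 6. The rule for standing apart was a difference of at least 0.5 and no overlap, by the probe used for each gene. It held for 4 of the 8 tested genes (Nr1d1, Nr1d2, Dbp and Per2) and for 4.68% of all genes. The other probes of Nr1d1 and Per2 did not meet it. The set of experiments, the sex-linked transcripts and any hour of dissection cannot be told apart.

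**Figure D1:**
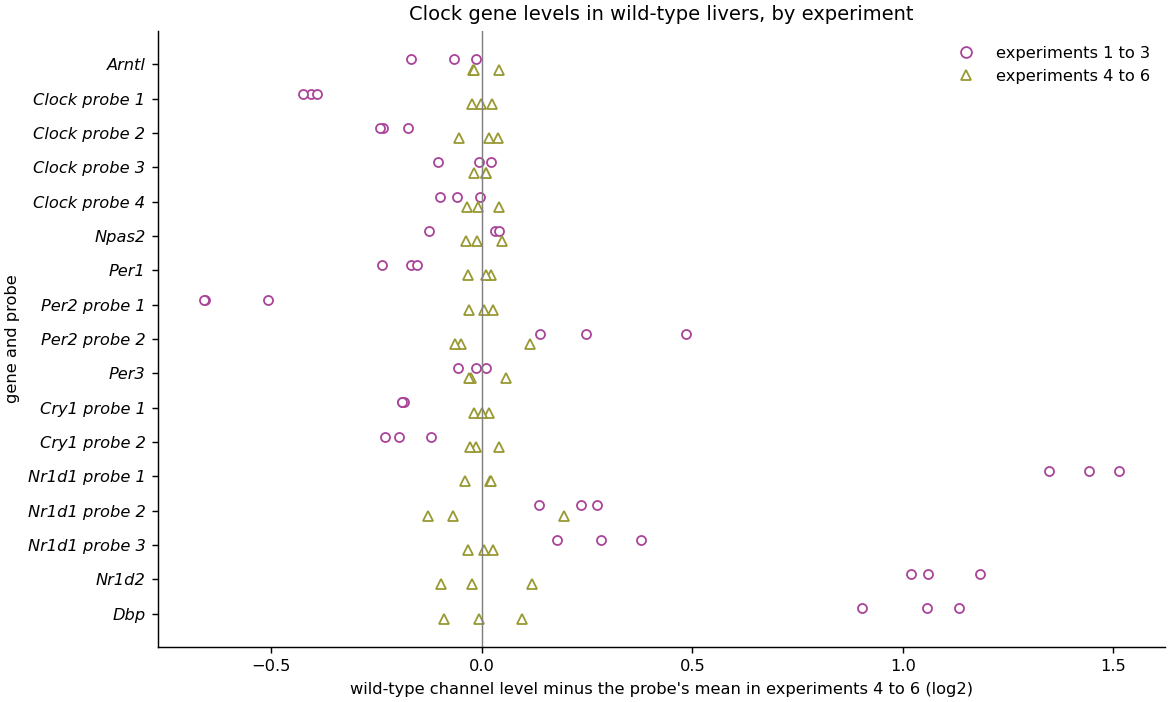
Wild-type channel level of each clock gene probe in experiments 1 to 3 (circles) and 4 to 6 (triangles), as the log2 difference from the probe's mean in experiments 4 to 6, with 1 point per experiment. Nr1d1 probe 1, Nr1d2 and Dbp lie about 1 log2 unit or more to the right in experiments 1 to 3, Per2 probe 1 and Clock probe 1 lie to the left, and the second probe of Per2 lies to the right.

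Arntl was the clock gene with the lowest adjusted p in this study, lower in Atg7 cKO livers and, by a smaller log2 ratio, in double knockout livers. It is the activator without which the loop stops. Its 1 probe lies at chr7:120456978-120457037 (mm9, plus strand) and was well above background in all 24 channels. In Nrf2 KO livers the level was 8.28 and 8.07 in experiments 1 and 4, against 8.18 and 8.17 in their wild-type partners. In Atg7 cKO livers it was 7.01 and 7.37 in experiments 2 and 5, against 8.03 and 8.17 in wild type. In double knockout livers it was 7.77 and 7.88 in experiments 3 and 6, against 8.13 and 8.23 in wild type. All 4 Atg7-deficient values lay below the lowest of the 6 wild-type values, 8.03, and the 2 Nrf2 KO values lay within or just above the wild-type range.

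Arntl fell by 0.91 ± 0.15 on the log2 scale in Atg7 cKO against wild type (SD, n = 2, lower in both experiments; limma, adjusted p = 0.00148). It passed the test in all 11 alternatives, with adjusted p between 0.0015 and 0.009. Its log2 ratio in the double knockout was -0.35 in both experiments (adjusted p = 0.0201), with an adjusted p of 0.056 when slide was a block and a range of 0.019 to 0.125 over the alternatives. Leaving out experiment 3 gave 0.125 and leaving out experiment 6 gave 0.121. In Nrf2 KO the ratios were 0.10 and -0.10, with a mean of 0.00 and a 95% interval of -0.20 to 0.20. On the deposited ratios, which carry no added offset, Arntl stood at -1.34 (log2) in Atg7 cKO livers and at -0.58 in double knockout livers.

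Clock, the partner of ARNTL, was lower in Atg7 cKO livers. It has 4 probes, all kept, of which the brightest, at chr5:76641377-76641436 (mm9, minus strand), was used. Its level in Nrf2 KO livers was 8.27 and 8.34 in experiments 1 and 4, against 8.01 and 8.44 in wild type. In Atg7 cKO livers it was 7.51 and 7.74 in experiments 2 and 5, against 7.99 and 8.41 in wild type. In double knockout livers it was 7.89 and 7.95 in experiments 3 and 6, against 8.03 and 8.39 in wild type. Both Atg7 cKO values and both double knockout values lay below the lowest wild-type value of 7.99.

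Clock fell by 0.58 ± 0.14 on the log2 scale in Atg7 cKO (SD, n = 2, lower in both experiments; limma, adjusted p = 0.0172). Without experiment 2 the adjusted p was 0.0528 and without experiment 5 it was 0.136, within a range of 0.0019 to 0.136 over 11 alternatives. The other 3 Clock probes were also lower in both Atg7 cKO experiments, with log2 ratios of -0.08 and -0.40, -0.24 and -0.29, and -0.08 and -0.07 in experiments 2 and 5, the last from a probe that was well above background in 8 of 24 channels. The mean over the 4 probes was -0.29, so the size of the change depends on the probe. The ratio in the double knockout was -0.29 ± 0.21 (adjusted p = 0.121), and it passed with the set of experiments as a block (adjusted p = 0.0116) and with the processed signals (adjusted p = 0.0499), in a range of 0.0116 to 0.602. In Nrf2 KO the ratios were 0.26 and -0.10.

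Npas2, the relative of CLOCK, was close to background throughout. Its probe at chr1:39418941-39419000 (mm9, plus strand) read 6.01 and 6.07 in Nrf2 KO, 5.94 and 5.88 in Atg7 cKO, 5.93 and 5.93 in double knockout livers, and 5.85 to 6.03 in the 6 wild-type channels. It was well above background on 2 of 4 Nrf2 KO arrays and in no other channel. A change in Npas2 could not be detected at this signal.

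Of the 8 tested clock genes, 2 passed the test in Atg7 cKO against wild type, Arntl and Clock, both lower. Over all genes 39.4% passed in this comparison, so 2 of 8, or 25%, lies below that background. The median log2 ratio of the 8 was -0.21, against 0.003 over all tested genes. Against wild type, 2 of 8 passed in the double knockout, Arntl lower and Per1 higher, with a background of 37.1% and a median of -0.32 against 0.005 over all genes. With the set of experiments as a block, 5 of 8 passed there, and 44.6% of all genes did. In Nrf2 KO none of the 8 passed, at an adjusted or an unadjusted p below 0.05, with a background of 0.012%, or 2 genes (615 genes at an unadjusted p). In the interaction contrast, which asks whether the double knockout departs from the sum of both single losses, none of 8 passed, against a background of 0.72%. At an unadjusted p below 0.05, 1 of 8 (Arntl) and 14.5% of all genes passed.

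**Figure D2:**
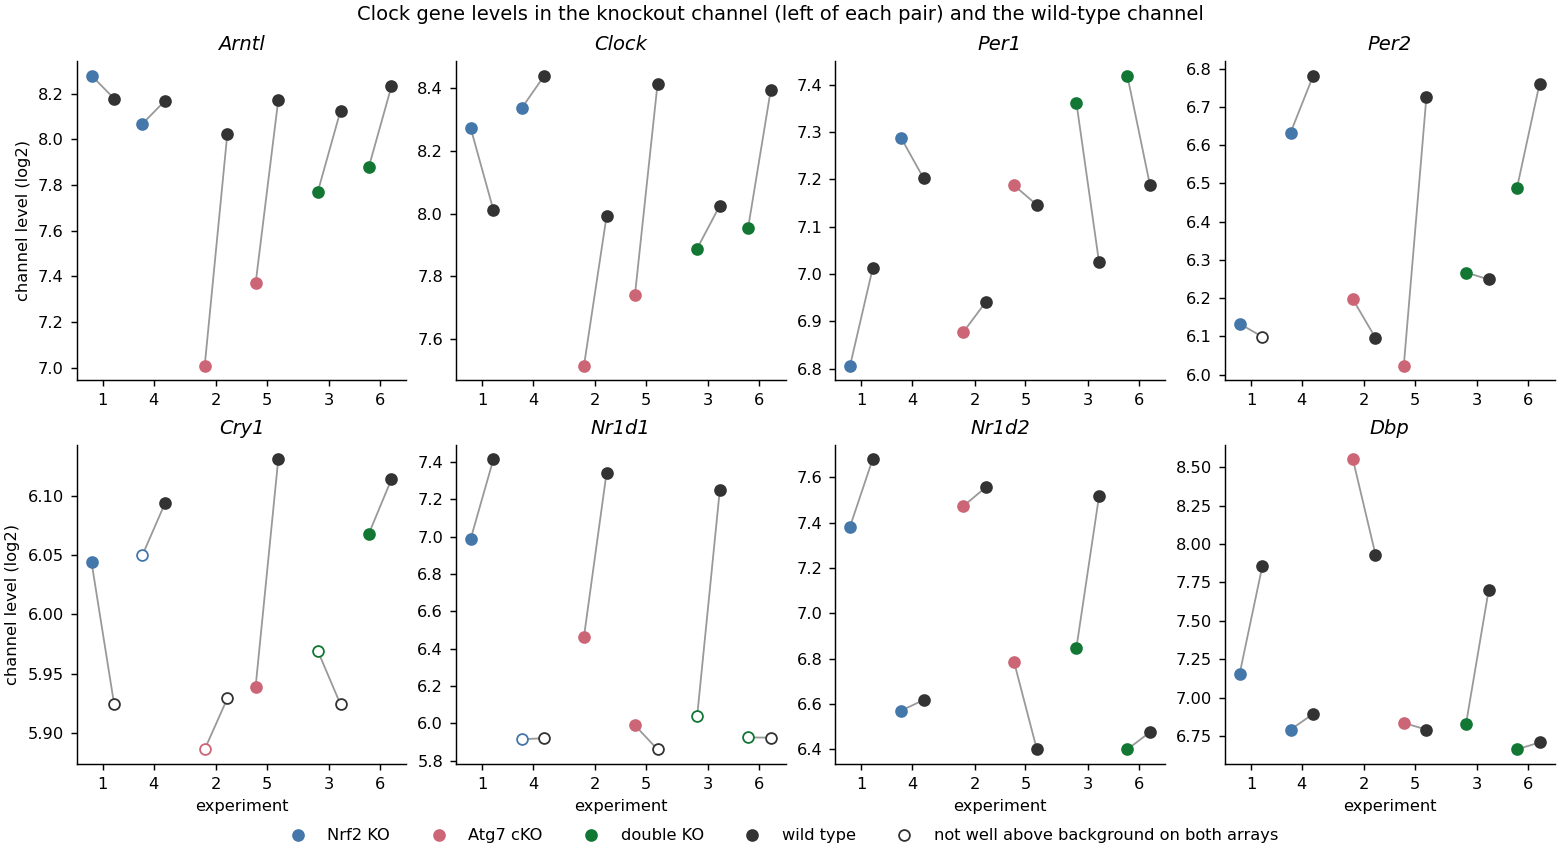
Level (log2 single-channel signal) of the 8 tested clock genes in each experiment, with the knockout channel left of its wild-type partner, joined by a line. Open points were not well above background on both arrays. For Arntl, the Atg7 cKO and double knockout points all lie below the lowest wild-type point of 8.03, whereas for Nr1d1, Nr1d2 and Dbp the wild-type points themselves fall at 2 heights.

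Hepatocyte and macrophage markers moved in the same experiments. In Atg7 cKO, 5 of 6 hepatocyte markers fell (Alb, Apob, Serpina1c, Tat and Ttr), and all 6 macrophage markers rose. The summed hepatocyte marker level was 14.90 and 15.09 in Atg7 cKO, against 16.33 and 16.36 in wild type (log2). The summed macrophage marker level was 14.70 and 15.41 in Atg7 cKO, against 12.81 and 12.97 in wild type. In the double knockout, 4 of 6 hepatocyte markers fell and 6 of 6 macrophage markers rose, with summed hepatocyte levels of 15.05 and 15.69 against 16.32 and 16.13 in wild type. Of the other marker lists, 2 of 2 measured neutrophil, 2 of 4 stellate, 1 of 4 lymphocyte, 1 of 4 cholangiocyte and 1 of 4 endothelial markers rose in Atg7 cKO. In the double knockout 2 of 2 neutrophil, 2 of 4 stellate, 2 of 4 lymphocyte and 1 of 4 cholangiocyte markers rose and 2 of 4 endothelial markers fell. No measured erythroid marker passed, and no marker of any list passed in Nrf2 KO. In bulk liver, fewer cells of a type and less RNA per cell cannot be told apart, and the part of cell composition in the clock gene results was not tested.

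The period genes, which encode repressors of the loop, had 1 change. Per1, read at chr11:68922878-68922937 (mm9, plus strand), stood at 6.81 and 7.29 in Nrf2 KO livers, against 7.01 and 7.20 in wild type. In Atg7 cKO livers it read 6.88 and 7.19, against 6.94 and 7.15 in wild type. In double knockout livers it read 7.36 and 7.42, against 7.03 and 7.19 in wild type. Both double knockout values lay above the highest wild-type value of 7.20.

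Per1 was higher in the double knockout by 0.28 ± 0.07 (log2 ratio, SD, n = 2, higher in both experiments; limma, adjusted p = 0.0483). The dye orientations of experiment 6 gave -0.05 and 0.51, so the mean of that experiment rests on a wide pair. The call was lost in 7 of 11 alternatives, with adjusted p up to 0.273, among them the processed signals (0.181), slide as a block (0.06), and leaving out experiment 2 (0.0676), 3 (0.273), 5 (0.0676) or 6 (0.144). In Atg7 cKO the ratios were -0.06 and 0.04, and in Nrf2 KO they were -0.21 and 0.09.

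Per2, measured by 2 kept probes, gave no change that held across them. The brightest probe, at chr1:93313046-93313105 (mm9, minus strand), read 6.13 and 6.63 in Nrf2 KO, 6.20 and 6.02 in Atg7 cKO, and 6.27 and 6.49 in double knockout livers. In wild type it read 6.10 and 6.78 beside Nrf2 KO, 6.10 and 6.73 beside Atg7 cKO, and 6.25 and 6.76 beside the double knockout. Its log2 ratios were 0.10 and -0.70 in Atg7 cKO, where leaving out experiment 2 gave an adjusted p of 0.0251 (0.274 with both, range 0.0251 to 0.635), and 0.02 and -0.27 in the double knockout. The other probe gave -0.27 and -0.18 for Atg7 cKO, -0.24 and -0.16 for the double knockout, and -0.22 and -0.18 in Nrf2 KO. It was below wild type in all 6 experiments, in all 3 genotypes. Per3, at chr4:150379256-150379315 (mm9, minus strand), stayed between 5.83 and 5.94 in all knockout channels and between 5.85 and 5.97 in wild type, near background.

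Cry1, the cryptochrome repressor, was dim. Its brightest probe, at chr10:84594731-84594790 (mm9, minus strand), was well above background in 13 of 24 channels and read 6.04 and 6.05 in Nrf2 KO, 5.89 and 5.94 in Atg7 cKO, 5.97 and 6.07 in double knockout livers, and 5.92 to 6.13 in wild type. These ranges overlap. The log2 ratio was -0.12 ± 0.11 in Atg7 cKO (adjusted p = 0.221), 0.00 ± 0.07 in the double knockout and 0.04 ± 0.12 in Nrf2 KO.

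Nr1d1, the gene of REV-ERB alpha, was measurable by its brightest probe only in experiments 1 to 3 in wild type. Its 3 probes were kept, and the brightest, on chromosome 11 between 98630526 and 98631028 (mm9, minus strand), was used. In experiments 1, 2 and 3 its level was 6.99 for Nrf2 KO, 6.46 for Atg7 cKO and 6.04 for double knockout livers, against 7.42, 7.34 and 7.25 in their wild-type partners. In experiments 4, 5 and 6 it was 5.92, 5.99 and 5.93 in the 3 knockouts, against 5.92, 5.86 and 5.92 in wild type. Every knockout of the first set was thus lower than its partner, and in the second set the probe was well above background only in Atg7 cKO.

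The Nr1d1 log2 ratio averaged -0.22 ± 0.30 for Nrf2 KO, -0.38 ± 0.71 for Atg7 cKO and -0.60 ± 0.86 for the double knockout, and none passed the test (adjusted p = 1, 0.448 and 0.247 in that order). The double knockout ratio passed with the set of experiments as a block (adjusted p = 0.0257) and with slide as a block (0.018), in a range of 0.018 to 0.999 over the alternatives, and without experiment 3 its value was 0.00. In Atg7 cKO it passed with slide as a block (adjusted p = 0.0455, range 0.0455 to 0.937). The other 2 probes had smaller ratios, at -0.10 and -0.04 for one and -0.12 and -0.12 for the other in the double knockout.

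Nr1d2, the gene of REV-ERB beta, is measured by 1 probe at chr14:19037253-19037312 (mm9, minus strand). It read 7.38 and 6.57 in Nrf2 KO livers, against 7.68 and 6.62 in wild type. In Atg7 cKO livers it read 7.47 and 6.78, against 7.56 and 6.40 in wild type. In double knockout livers it read 6.85 and 6.40, against 7.52 and 6.48 in wild type. The log2 ratio was -0.37 ± 0.42 in the double knockout (adjusted p = 0.165), 0.15 ± 0.33 in Atg7 cKO (adjusted p = 0.544) and -0.17 ± 0.18 in Nrf2 KO. The double knockout ratio passed with the set as a block (adjusted p = 0.0142) and with slide as a block (0.0256), in a range of 0.0142 to 0.82, its 2 experiments giving -0.67 and -0.08.

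Dbp, the D-box factor at the head of the liver's rhythmic output, had its larger ratios in the first set of experiments. Its probe at chr7:52965265-52965324 (mm9, plus strand) was well above background in all 24 channels. It read 7.16 and 6.79 in Nrf2 KO livers, against 7.86 and 6.89 in wild type. In Atg7 cKO livers it read 8.55 and 6.84, against 7.93 and 6.79 in wild type. In double knockout livers it read 6.83 and 6.66, against 7.70 and 6.71 in wild type. In experiment 2 Atg7 cKO was above wild type, while in experiments 1 and 3 Nrf2 KO and the double knockout were below it.

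The Dbp log2 ratio was -0.40 ± 0.42 for Nrf2 KO, 0.33 ± 0.41 for Atg7 cKO and -0.46 ± 0.58 for the double knockout (SD, n = 2 each), and none passed the test (adjusted p = 1, 0.355 and 0.228 in that order). In experiments 4, 5 and 6 all 3 ratios lay between -0.10 and 0.04. Both dye orientations agreed within each of experiments 1 to 3, at -0.74 and -0.66 in Nrf2 KO, 0.60 and 0.64 for Atg7 cKO, and -0.90 and -0.84 for the double knockout. The scatter therefore lay between experiments and not between dyes.

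**Figure D3:**
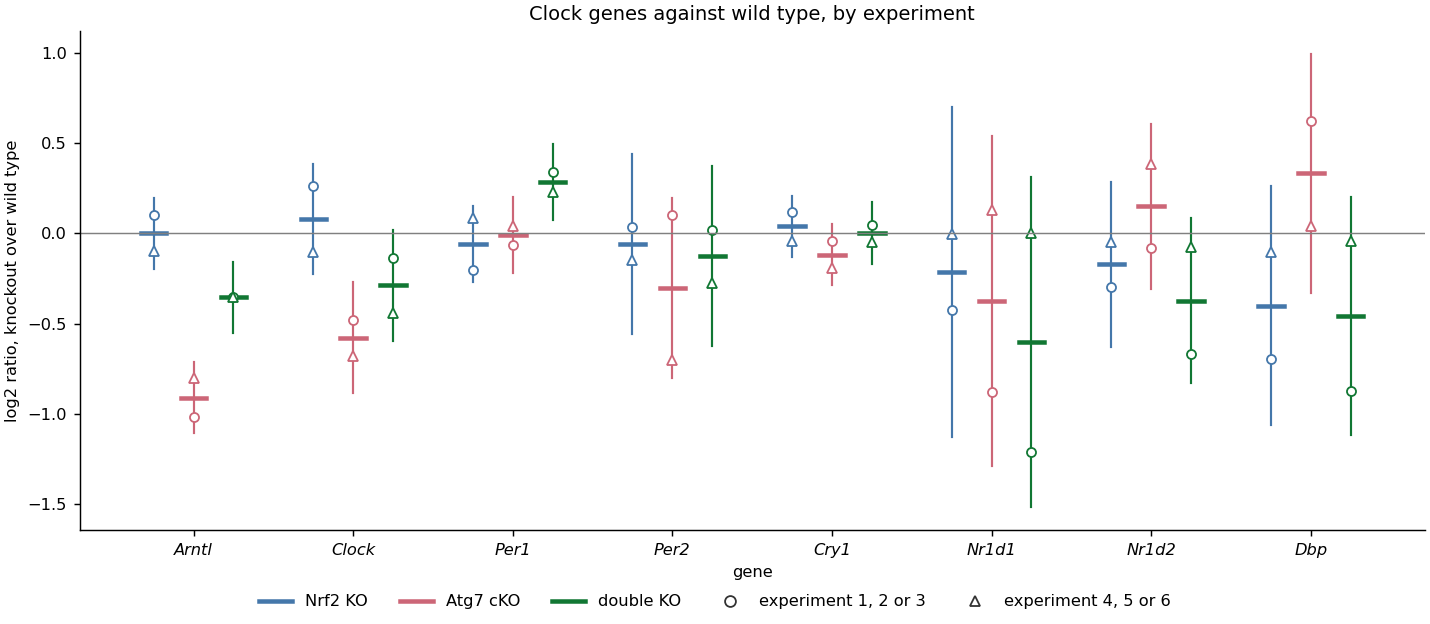
Log2 ratio of knockout over wild type for the 8 tested clock genes, with 1 point per experiment (circles for experiments 1 to 3, triangles for 4 to 6), the mean as a thick bar and the 95% interval of the fit as a thin line. Arntl and Clock lie below 0 in both Atg7 cKO experiments, and the Nr1d1 and Dbp circles lie farther from 0 than their triangles in all 3 genotypes.

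The direct arrays compared livers that lacked both Nrf2 and Atg7 with livers that lacked Atg7 alone. Arntl was higher in double knockout than in Atg7 cKO livers in both experiments, with deposited log2 ratios of 0.90 in experiment 7 and 0.65 in experiment 8. Whether a spot was above background in experiments 7 and 8 is unknown here, since their values come from the table alone, on a scale without the offset used for experiments 1 to 6. The mean for Arntl was 0.77 ± 0.18 (SD, n = 2; limma over 8 experiments, adjusted p = 0.0167). It was the 1 clock gene of 8 that passed, and 14.8% of all genes passed in this comparison. The call was lost when the 2 experiments were fitted alone (adjusted p = 0.134) and when experiment 7 (0.161) or 8 (0.0529) was left out, in a range of 0.0171 to 0.161.

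The same difference computed through wild type, from arrays that the direct experiments do not share, was 0.56 for Arntl (95% interval 0.28 to 0.83, adjusted p = 0.057). The labels do not say whether both routes used the same RNA extracts, so the 2 routes may not be independent. On the deposited ratios Arntl stood at -1.51, -0.62 and 0.90 in experiments 2, 3 and 7. In experiments 5, 6 and 8 it stood at -1.18, -0.55 and 0.65. In both series the direct ratio lay close to the difference between the other 2, so the routes are not counted as separate evidence. If extracts were shared, the p-values of the direct comparison count the same livers more than once. Sharing was not tested. None of the 8 genes passed through wild type, at a background of 4.96%. At an unadjusted p below 0.05, 1 of 8 (Arntl) did, and so did 22% of all genes. Clock gave 0.29 and 0.28 in experiments 7 and 8 and 0.29 through wild type (adjusted p = 0.213 and 0.401). Per1 gave 0.53 and 0.36 directly and 0.30 through wild type, with adjusted p of 0.126 and 0.231. Cry1 gave 1.51 and 1.21 on the direct arrays (adjusted p = 0.117) and 0.12 through wild type, where its probe was dim. With the processed signals, which like the direct ratios carry no offset, the Cry1 difference through wild type was 0.83 (adjusted p = 0.589).

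Nr1d1, Nr1d2 and Dbp had mean direct ratios below 0, none of which passed the test. Nr1d1 had direct ratios of -2.40 and -1.70 (adjusted p = 0.304), and its interval ran from -5.11 to 1.01. Nr1d2 had -1.24 and -0.68 (adjusted p = 0.101), against -0.52 through wild type. Dbp had -2.30 in experiment 7 and -0.20 in experiment 8 (adjusted p = 0.182), and -0.79 through wild type. Per2 had -0.11 and 1.57. The deposited Xist ratio was 0 in experiments 1, 2, 3 and 7, and 0.48 in experiment 8. That of Ddx3y was 0.12 in experiment 7, and 0 in experiments 5, 6 and 8. Eif2s3y gave -0.20 in experiment 7 and 0 in experiment 8. Experiments 7 and 8 thus also differed in sex-linked transcripts. Their gap in clock genes cannot be told apart from the difference between the 2 sets. Of the 8 genes, 5 had a positive and 3 a negative direct ratio, and at an unadjusted p below 0.05 there were 4, namely Arntl, Per1, Cry1 and Nr1d2, where 33.8% of all genes passed at that level.

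**Figure D4:**
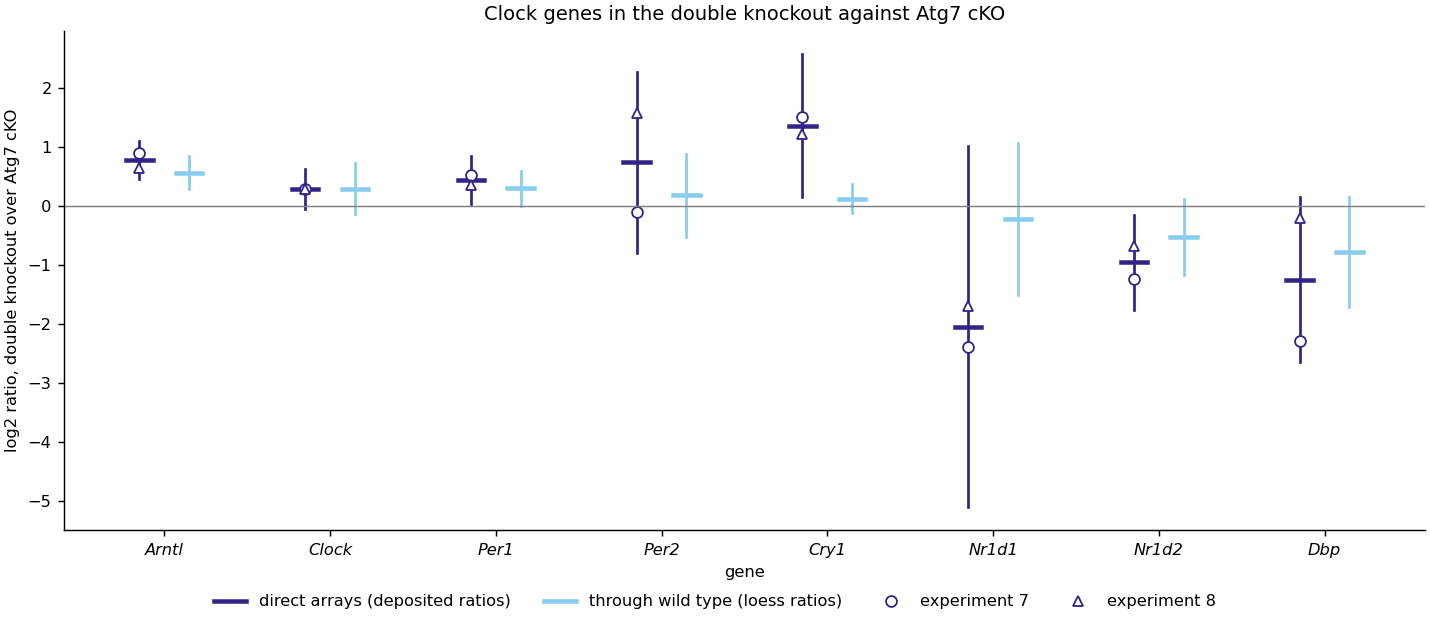
Log2 ratio of double knockout over Atg7 cKO for the 8 tested clock genes, from the direct arrays (dark, experiment 7 as circles and 8 as triangles) and through wild type (light), with means as thick bars and 95% intervals as thin lines. The direct values are deposited ratios and the others are loess ratios with an offset, so sizes differ for dim genes. Arntl lies above 0 by both routes, and Nr1d1, Nr1d2 and Dbp have means below 0.

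Across the 8 experiments of the value table, the clock genes had correlations with Arntl of either sign, several of them weak. Pearson's r with Arntl was 0.92 for Clock, 0.77 for Cry1, 0.52 for Per2 and 0.43 for Per1, and it was -0.24 for Nr1d1, -0.55 for Nr1d2 and -0.60 for Dbp. Nr1d1 and Nr1d2 had an r of 0.88 with each other, and Nr1d2 and Dbp one of 0.75. These are descriptions over 8 experiments that fall into 4 comparisons and share genotypes. The probes of Cry1 and Nr1d1 were each well above background in 13 of 24 channels of experiments 1 to 6. Their ratios carry no offset here, so an r with either gene rests in part on signal near background. The genes most like Arntl were Dhx16 (r = 0.996), Neb (0.995), Ctage5 (0.995), Chd3 (0.994) and the array's unnamed transcript NAP057020-1 (0.993). As 862 of 11109 genes, or 7.76%, had an r of at least 0.9 with Arntl, such likeness was common. The genes most like Dbp were Dcaf12l1 (0.971), NAP123201-1 (0.959), Clstn3 (0.952), Trim7 (0.95) and Afap1l1 (0.949), and 26 genes, or 0.234%, reached 0.9 with it.

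Among 16 other core and accessory clock genes, 13 were measured. In Atg7 cKO against wild type 3 rose and 3 fell, and in the double knockout 3 rose and 3 fell, while none passed in Nrf2 KO. The share of all tested genes past the threshold was 39.4% for Atg7 cKO and 37.1% for double knockout livers. Whether the 13 exceeded these shares was not tested. The median log2 ratio of the 13 was -0.10 for Atg7 cKO and -0.05 for the double knockout, near that of all genes. Nfil3, a repressor that binds D-box elements in competition with DBP, had levels of 9.498 and 9.66 in Atg7 cKO livers, against 10.68 and 10.62 in wild type. In double knockout livers it had 10.57 and 10.39, against 10.58 and 10.58 in wild type. Both Atg7 cKO values lay well below wild type, and the double knockout values lay just under it. Nfil3 fell by 1.07 ± 0.16 in Atg7 cKO (adjusted p = 0.00168), gave -0.10 ± 0.14 in the double knockout (adjusted p = 0.455), and was higher in double knockout than in Atg7 cKO livers by 0.95 ± 0.27 on the direct arrays (adjusted p = 0.0122) and by 0.97 through wild type (adjusted p = 0.0293).

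Hlf, a relative of Dbp, fell by 0.96 ± 0.45 in Atg7 cKO (adjusted p = 0.00662) and by 0.92 ± 0.06 in the double knockout (adjusted p = 0.00756). Tef, the third member of that family, fell by 0.87 ± 0.33 in the double knockout (adjusted p = 0.0106) and gave -0.45 ± 0.12 in Atg7 cKO (adjusted p = 0.0687). Rora, an activator at ROR elements, fell by 0.50 ± 0.30 in Atg7 cKO (adjusted p = 0.031) and gave -0.09 in the double knockout. The casein kinases Csnk1d and Csnk1e, which phosphorylate PER proteins, were higher in both Atg7-deficient genotypes. Csnk1d rose by 0.46 in Atg7 cKO and by 0.38 in the double knockout, and Csnk1e by 0.92 in Atg7 cKO and by 0.68 in the double knockout. Timeless rose by 0.50 in Atg7 cKO and by 0.52 in the double knockout. Fbxl21, an F-box gene of the cryptochrome pathway, was higher in double knockout than in Atg7 cKO livers on the direct arrays (log2 ratio 1.06, adjusted p = 0.0493), and the difference through wild type was 0.13 (adjusted p = 0.393). Its levels were 5.85 to 6.08 (log2) in experiments 1 to 6, a dim signal at which a ratio without an offset gives no reliable size.

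Lists of genes that follow the clock, feeding or stress hormones were read beside it. Their counts stand against the same shares of all genes, 39.4% (Atg7 cKO) and 37.1% (double knockout). Whether any list exceeded these shares was not tested. Of 9 rhythmic liver output genes 8 were measured, and 3 rose, among them Alas1 and Nampt, and 1 fell (Cyp7a1, the rate-limiting enzyme of bile acid synthesis), in Atg7 cKO and likewise in the double knockout. In Atg7 cKO Alas1 rose by 1.12 ± 0.61, Nampt rose by 0.96 ± 0.40, and Cyp7a1 fell by 2.07 ± 0.23. Of these 8 genes, 4 had wild-type levels that stood apart between the 2 sets of experiments, where 4.68% of all genes did. Among the 4 was Elovl3, at a mean of 12.17 in experiments 1 to 3 and 6.18 in experiments 4 to 6. These sets also differed in the sex-linked transcripts Xist and Ddx3y, so the Elovl3 difference cannot be assigned to the clock. Of 6 glucocorticoid-responsive genes 5 were measured, and Sgk1 rose and Tat fell in Atg7 cKO, while Sgk1 and Mt2 rose in the double knockout. Sgk1 rose by 1.14 ± 0.34 in Atg7 cKO and by 0.72 ± 0.23 in the double knockout, and Mt2 by 3.40 ± 2.37 in the double knockout. Tat, a liver enzyme of tyrosine breakdown, was higher in double knockout than in Atg7 cKO livers by 1.64 ± 0.28 on the direct arrays (adjusted p = 0.00837).

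Of 12 fasting and feeding genes 11 were measured, and in Atg7 cKO Fgf21 and Angptl4 rose and G6pc and Srebf1 fell. Fgf21 and Igfbp1 rose and G6pc fell in the double knockout. Fgf21, a liver hormone of fasting and stress, rose by 1.35 ± 0.15 in Atg7 cKO and by 0.53 ± 0.10 in the double knockout. G6pc, the last enzyme of glucose output, fell by 1.42 ± 0.22 in Atg7 cKO and by 1.55 ± 0.82 in the double knockout. Directly against Atg7 cKO, Igfbp1 was higher by 2.38 ± 1.08 and Angptl4 lower, with a log2 ratio of -0.82 (adjusted p = 0.0423 for Igfbp1 and 0.0472 for Angptl4). Through wild type neither passed, at 2.42 for Igfbp1 (adjusted p = 0.122) and -0.76 for Angptl4 (adjusted p = 0.0919), whereas Fgf21 did at -0.82 (adjusted p = 0.049), against -1.38 on the direct arrays (adjusted p = 0.0769). Of 5 immediate early genes, Atf3 and Jun rose in Atg7 cKO, and Atf3, Jun, Egr1 and Fos rose in the double knockout. Jun rose by 1.24 ± 0.13 in Atg7 cKO. None of the genes in these 4 lists passed in Nrf2 KO. Of the 5 glucocorticoid-responsive genes 4 had wild-type levels apart between the sets of experiments, as did 4 of the 11 fasting and feeding genes and 2 of the 5 immediate early genes. The part of feeding state, hormones or hour of dissection in the clock gene levels was not tested.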

How the data were processed

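Liver RNA was hybridised to 16 2-colour Agilent arrays. Per the file headers, spot intensity was extracted with Agilent Feature Extraction 9.5.1.1 (protocol GE2-v5_95_Feb07) and probes were placed on mm9; the submitters' processing notes name version 9.5.1. The 12 arrays of experiments 1 to 6 were read from scanner intensity files, and all 16 from the authors' deposited log10 ratio table, turned to log2. Scanner files of experiments 7 and 8 were not used here. The deposited ratios matched the scanner log10 ratios of the 12 arrays within 0.005, which settles their scale and direction there.

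Intensities were corrected with normexp (offset 50) and normalized by loess within arrays, and by Aquantile for single-channel levels (limma 3.58.1, R 4.3.3). The offset shrinks ratios of dim genes. A dye swap was averaged into 1 experiment. Probes well above background in at least 4 of 24 channels were kept, and the brightest kept probe stood for a gene. An accession match gave the name of 24844 of 41174 probes and a symbol match that of 6045, while 10285 kept the file's name, and 21 genes without a complete dye swap were dropped.

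One mean per comparison was fitted with limma's moderated test over experiments 1 to 6 (3 residual degrees of freedom), and over 8 experiments for the direct comparison. The fit over 8 experiments treats them as independent, which the labels do not settle. If RNA extracts were shared between experiments, its p-values are too small. P-values were Benjamini-Hochberg adjusted over 16664 genes, with 0.05 as the threshold. Median spot signal was 41.8 to 55.6 against a background of 34.5 to 36.5 intensity units. The number of arrays limits the precision. The fit was tested on simulated data.

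All 10 clock genes are described. Other lists are given as counts, with values for members that passed (some are not reported here), and the 5 genes most correlated with Arntl and with Dbp were taken among genes with an SD of at least 0.3. The clock genes and lists were chosen with earlier results of these data known. Alternatives were the processed signals, no filter, the mean over probes, slide or set of experiments as a block, the direct experiments alone, and leaving out each experiment. Reading the other probes for wild-type levels was chosen after seeing the data. Figures were drawn with matplotlib 3.10.9.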

Additional observations from a re-analysis of the deposited data

How the results depend on the processing

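With 2 experiments per comparison and pooled spread, leaving out 1 experiment of a comparison leaves a lone experiment that is assumed to vary like the others. Of the log2 ratios under each alternative, 423 kept direction and side of the threshold, 15 lost a call, 9 gained one and 33 turned sign, all of them ratios that had not passed as reported. Counts of clock genes that passed with 1 experiment left out are not compared, since such a fit leaves a lone experiment in 1 comparison. For the double knockout the number of clock genes that passed was 1 without the filter on dim probes, where more genes were tested. Of all genes, 21% passed in that fit. The number was 5 with the set of experiments as a block, a fit in which 44.6% of all genes passed. On the direct arrays it was 0 with those 2 experiments fitted alone, a fit in which 0.641% of all genes passed. Through wild type it was 1 (Nr1d2, adjusted p = 0.0496) with the set as a block, where 8.6% of all genes passed. Why the block changed these counts was not tested. The compared groups share no experiment number, so the set was the 1 block that held an experiment of each comparison with wild type.

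Sign changes with slide as a block gave log2 ratios of -0.006 for Clock, -0.003 for Cry1, 0.154 for Nr1d1 and 0.004 for Nr1d2 in Nrf2 KO, 0.055 for Per1 in Atg7 cKO, and 0.052 for Cry1 and 0.036 for Per2 in the double knockout. With the processed signals they were -0.009 for Arntl and 0.026 for Per2 in Nrf2 KO and 0.008 for Cry1 in the double knockout. The mean over probes gave 0.037 for the Nr1d1 interaction. Leaving out 1 experiment gave these ranges across 0. In Nrf2 KO they were -0.101 to 0.101 for Arntl, -0.105 to 0.261 for Clock, -0.206 to 0.086 for Per1, -0.149 to 0.033 for Per2 and -0.045 to 0.12 for Cry1. In Atg7 cKO they were -0.064 to 0.041 for Per1, -0.703 to 0.101 for Per2, -0.878 to 0.129 for Nr1d1 and -0.084 to 0.384 for Nr1d2. In the double knockout they were -0.274 to 0.017 for Per2, -0.046 to 0.045 for Cry1 and -1.21 to 0.001 for Nr1d1. Per2 ran from -0.105 to 1.573 directly and from -0.229 to 0.575 through wild type, and Nr1d1 from -0.835 to 0.376 through wild type. The interaction ran from -0.171 to 0.633 for Per2, -0.003 to 0.162 for Cry1, -0.619 to 0.591 for Nr1d1 and -0.802 to 0.024 for Dbp.

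The wild-type differences between experiments 1 to 3 and 4 to 6 were larger with the processed signals, which carry no offset, at 5.716 for Nr1d1, 2.008 for Nr1d2, 1.571 for Dbp, -0.22 for Arntl, -0.61 for Clock, -0.473 for Per1, -2.029 for Per2, -2.167 for Cry1 and -0.833 for Npas2. Those of Nr1d1, Cry1 and Npas2 are set against signal not well above background and give no size. By other probes they were -0.218, -0.03 and -0.055 for Clock, 0.215 and 0.28 for Nr1d1 and 0.29 for Per2, the last of opposite sign. Over all genes, the count past the threshold ranged from 3203 to 7843 in Atg7 cKO (6569 as reported), from 2856 to 7429 in the double knockout (6185), from 81 to 1433 through wild type (827), from 0 to 339 for the interaction (120), from 0 to 11 in Nrf2 KO (2) and from 107 to 2468 on the direct arrays (2468).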
